A study of Drosophila melanogaster with 3 samples.

Results

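The regions described here are those of a Plzf-eGFP chromatin immunoprecipitation that lie in the pericentromeric stretches of 4 chromosome arms or on chromosome 4 of Drosophila melanogaster. They were taken by position alone from the pooled list of regions on the dm6 assembly, by a summit on 2L at 22.0 Mb or above, on 3L at 22.9 Mb or above, on 3R below 4.2 Mb, on X at 22.0 Mb or above, or anywhere on 4. This gave 213 of 30000 pooled regions, and 23 of the 7096 peaks that the authors selected by the irreproducible discovery rate (IDR), a procedure that keeps regions on which replicates agree in rank. The 23 IDR peaks lay on 4 (13 peaks), X (8), 2L (1) and 3R (1), and there were 0 on 3L. They were set against the rest of the same arms 2L, 3L, 3R and X, with 24717 pooled regions and 5849 IDR peaks.

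The study had 1 group of 3 biological replicates: whole prepupae of both sexes from a stable transgenic line, strain CG6792-GFP, in which Plzf, the zinc finger protein encoded by CG6792, carries a green fluorescent protein at its C terminus. The immunoprecipitation used an antibody against GFP per the description, and CG6792 is what the antibody tag gives. Whole animals mix all tissues, the age within the stage is unknown per the labels, and whether the line still makes untagged Plzf was not analysed here. Signal is the height the authors' caller gave a region, on the scale of its own list, and the number of reads behind it is unknown. In the 3 replicate lists of 30000 regions, 389, 162 and 419 regions fell in the pericentromeric stretches or on 4, in replicates 1, 2 and 3.

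Pericentromeric sequence flanks the centromeres and is packed as constitutive heterochromatin: it is rich in transposable elements and satellites, carries methylated lysine 9 of histone H3, and is bound by heterochromatin protein 1a. Genes are sparse there, and many of those present are long and need the heterochromatic surroundings for their expression. Chromosome 4, the dot chromosome, carries the same histone mark and protein along most of its length and is also coated by the protein POF, yet its genes are expressed at levels like those elsewhere.

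Sequences of 101 bases centred on the summit are given for 9 of the IDR peaks, to show what the strongest peaks on 4 and X look like and how far their base composition ranged. They were read from the RefSeq genome, dm6, plus strand. Of the 23 windows, 19 held no base of an annotated UTR, and the 9 were taken from those. Capitals mark matches, on either strand, to motifs that are described further on. The first 4 are the strongest such windows on 4.
gw, chr4:660052-660152: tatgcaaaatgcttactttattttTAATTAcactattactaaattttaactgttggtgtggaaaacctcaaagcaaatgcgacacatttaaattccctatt
lncRNA:CR43437, chr4:424767-424867: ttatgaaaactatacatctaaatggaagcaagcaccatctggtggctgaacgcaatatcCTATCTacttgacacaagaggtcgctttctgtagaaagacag
Sox102F, chr4:807511-807611: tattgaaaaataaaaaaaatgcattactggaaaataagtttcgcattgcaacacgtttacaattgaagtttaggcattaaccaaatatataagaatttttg
PlexA, chr4:1027254-1027354: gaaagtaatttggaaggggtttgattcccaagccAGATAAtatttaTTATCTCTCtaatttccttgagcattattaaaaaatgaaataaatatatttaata
The next 3 are from the strongest peaks at 3 loci on X.
CG42346, chrX:22833706-22833806: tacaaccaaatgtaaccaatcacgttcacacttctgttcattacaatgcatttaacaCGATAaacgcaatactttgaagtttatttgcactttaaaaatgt
CG12576, chrX:22479483-22479583: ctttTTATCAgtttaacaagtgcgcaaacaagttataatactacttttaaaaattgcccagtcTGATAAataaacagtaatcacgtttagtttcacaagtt
l(1)G0196, chrX:22491132-22491232: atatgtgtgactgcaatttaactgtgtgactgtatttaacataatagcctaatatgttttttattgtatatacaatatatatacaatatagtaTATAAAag
The last 2 are the window of lowest GC content among the 23, at 16.8%, and 1 of the 2 windows of highest GC content, at 52.5%.
CG17167, chrX:23071231-23071331: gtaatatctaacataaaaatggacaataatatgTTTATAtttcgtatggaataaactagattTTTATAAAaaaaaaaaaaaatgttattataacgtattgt
Asator, chr4:489481-489581: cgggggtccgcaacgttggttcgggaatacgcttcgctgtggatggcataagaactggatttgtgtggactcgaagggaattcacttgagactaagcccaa

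Strong regions were sparse in these stretches. Together the stretches span 13.8 Mb and the rest of the arms 94.8 Mb. IDR peaks numbered 1.67 per Mb in the stretches and 61.7 per Mb in the rest, and all pooled regions 15.4 and 261 per Mb. To see whether each replicate showed this by itself, the 7096 regions of highest signal in each replicate, called its strongest regions here, were counted. In the pericentromeric stretches and on 4 there were 1.74, 1.59 and 2.39 strongest regions per Mb in replicates 1, 2 and 3 (24, 22 and 33 regions), against 61.7, 61.3 and 62.0 per Mb in the rest of the arms. Every replicate had a far lower density in the stretches, and the ranges did not overlap. The log2 ratio of the stretches over the rest was -5.04 ± 0.30 (SD, n = 3), a density 0.0304 times as high, with p = 0.25 in the exact two-sided sign-flip permutation test over replicates. With 3 replicates 0.25 is the smallest p this test can give, so no comparison of this kind could pass 0.05.

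The stretches also have fewer genes and more masked bases, and these values move with the density. Protein-coding genes numbered 16.8 per Mb in the stretches and 114.6 per Mb in the rest. Per 100 protein-coding genes there were 11.35 ± 2.53 strongest regions in the stretches and 53.8 ± 0.304 in the rest (SD, n = 3), a log2 ratio of -2.27 ± 0.30 (p = 0.25, exact sign-flip permutation test). This way of counting was added after the densities were seen. Soft-masked bases, which RefSeq marks as repeats, made up 39.0% of the sequence in the stretches and 17.4% in the rest. Counted over bases that are not masked, the log2 ratio was -4.58 ± 0.30 (SD, n = 3). How reads that align to several places were treated is not given in the sources used here, and the part of this in the low density was not tested.

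Chromosome 4 and the pericentromeric stretches differed from each other more than the replicates did. Chromosome 4, with 59.3 protein-coding genes per Mb, held 12.6, 10.4 and 15.6 strongest regions per Mb in replicates 1, 2 and 3. The 4 pericentromeric stretches, with 12.2 genes per Mb, held 0.562, 0.642 and 0.963 per Mb. The log2 ratio to the rest of the arms was -2.28 ± 0.28 for chromosome 4 alone and -6.46 ± 0.40 for the pericentromeric stretches (SD, n = 3 each). Among the pericentromeric stretches, the one on X had the highest density of pooled regions at 41.5 per Mb, followed by 2L with 19.2, 3L with 3.65 and 3R with 1.90 per Mb. In every replicate X and 2L were above 3L and 3R. Replicate 1 gave 47.3, 44.9, 11.9 and 3.81 regions per Mb on X, 2L, 3L and 3R, replicate 2 gave 35.0, 11.2, 1.34 and 1.67, and replicate 3 gave 37.0, 40.3, 11.1 and 6.43. Neighbours in this order therefore changed places: 2L exceeded X in replicate 3, and 3R exceeded 3L in replicate 2.

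**Figure D1:**
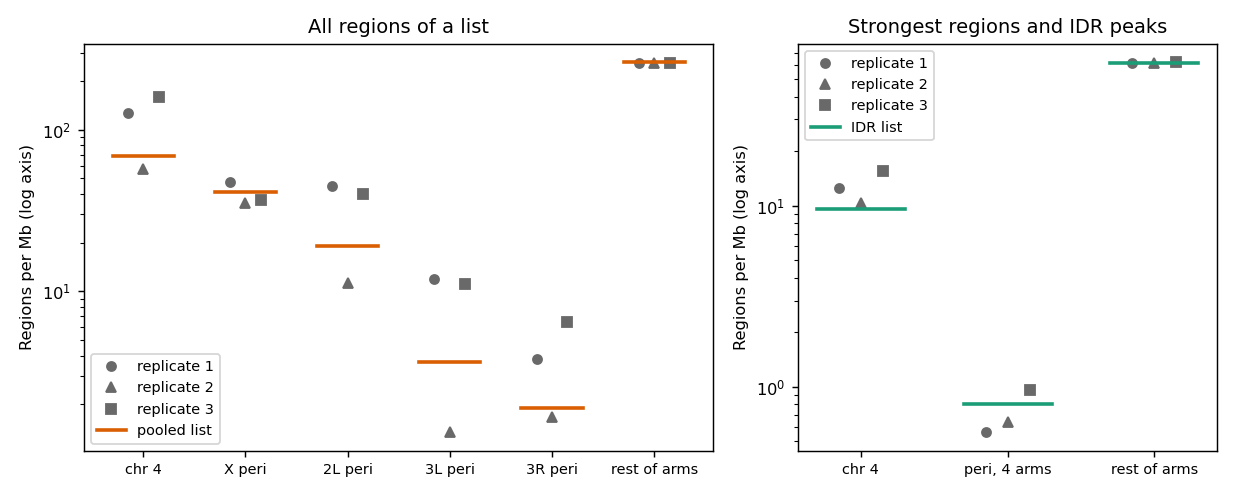
Regions per Mb on log axes, for all regions of each list (left) and for the strongest regions and IDR peaks (right); points are the 3 replicates and bars the pooled or IDR list, and peri stands for pericentromeric. In the right panel the replicate points of chromosome 4 lie between 10.4 and 15.6 per Mb and its IDR bar at 9.64, the points of the pericentromeric stretches lie between 0.562 and 0.963 per Mb, and the rest of the arms is near 61.7 per Mb.

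Replicate 2 had fewer weak regions in the stretches than the other replicates. On chromosome 4 it listed 77 regions, against 170 in replicate 1 and 216 in replicate 3, and in the pericentromeric stretches it listed 85, against 219 and 203. In the rest of the arms the 3 lists held 24561, 24566 and 24464 regions. The strongest regions did not show a gap of this size, with 14 on chromosome 4 in replicate 2, against 17 and 21 in replicates 1 and 3. Each list stops at 30000 regions, so a weak region of the stretches enters a list only if it outranks weak regions elsewhere.

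Where the density dropped was read from bins of 0.5 Mb on both sides of the boundary. On 2L, pooled regions numbered 46.0 per Mb in the bin just inside the boundary and 126 per Mb in the bin just outside it. The bins inside and outside gave 18.0 and 190 per Mb on 3L, and 16.0 and 158 per Mb on 3R. Further in, 3R held 0 pooled regions in each bin, and 3L held at most 6.00 per Mb. On X the drop lay outside the boundary used: the bins inside gave 28.0, 78.0 and 22.0 per Mb, and the bin just outside gave 22.0 per Mb, with 196 per Mb in the next one. That outer bin on X was masked over 38.2% of its bases, against 17.8% in the next. Around the X boundary the nearest pooled region on the inner side lay 443989 bp away, and on the outer side 368250 bp away. When all boundaries were moved 0.5 Mb towards the arms, the log2 ratio of strongest regions was -3.74 ± 0.21 (SD, n = 3), and 0.5 Mb towards the centromeres it was -5.06 ± 0.24 (SD, n = 3).

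**Figure D2:**
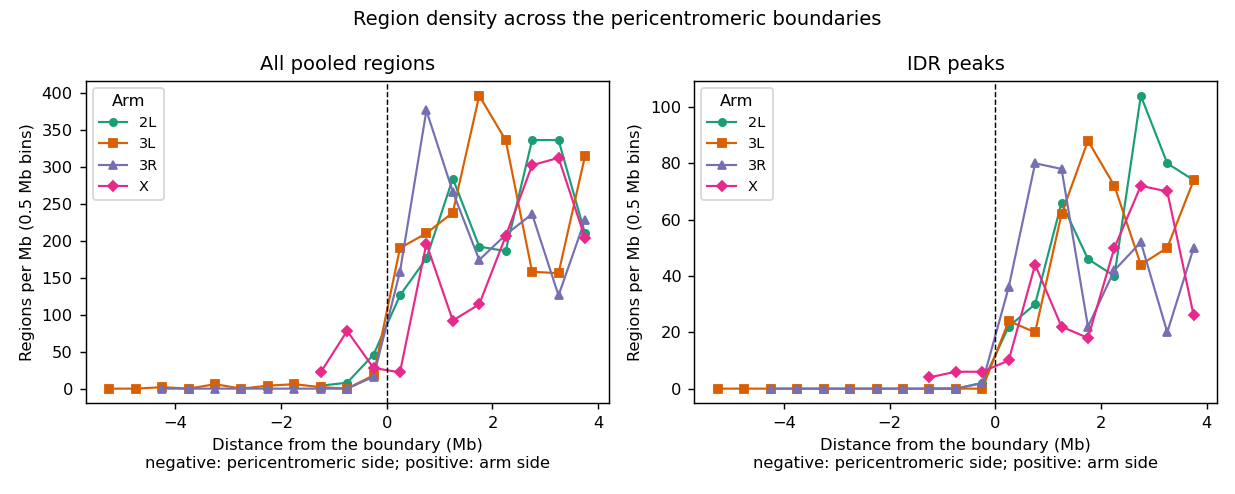
Pooled regions per Mb (left) and IDR peaks per Mb (right) in bins of 0.5 Mb, by distance from the boundary of each arm in Mb; the pericentromeric side is on the left of the dashed line, and the last bin of an arm can be shorter. On 2L, 3L and 3R the pooled density just inside the boundary is 46.0, 18.0 and 16.0 per Mb against 126, 190 and 158 just outside, while X is at 22.0 per Mb already in the first bin outside.

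A smaller share of the regions found in these stretches reached the IDR list. Of the 213 pooled regions, 23 were IDR peaks (10.8%, 95% Wilson interval 7.30 to 15.7), against 23.7% of the 24717 pooled regions in the rest of the arms. The share was 14.0% of 93 regions on chromosome 4 and 8.33% of 120 in the pericentromeric stretches. On 3L it was 0 of 19, which allows a share of up to 15.8%. These intervals cover the counting of regions only, and regions are not independent replicates. In the replicates' own lists, the strongest regions made up 6.17%, 13.6% and 7.88% of the regions in the stretches and on 4 in replicates 1, 2 and 3, and 23.8%, 23.6% and 24.0% of those in the rest. The difference was -14.6 ± 4.02 percentage points (SD, n = 3; p = 0.25, exact sign-flip permutation test), with the same sign in 3 of 3 replicates.

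The median signal of the IDR peaks of the stretches was also lower than that of the rest, a difference that was not tested. Their median signal was 130.5, with a range of 82.6 to 495, against a median of 145.3 and a highest value of 3444 in the rest. The median was 135.1 for the 13 peaks on chromosome 4 and 110.0 for the 10 pericentromeric peaks. Of the 23, 3 fell in the strongest quartile of all IDR peaks, 6 in the second, 5 in the third and 9 in the weakest. The weakest of the 23, at 82.6, lay just above the last signal of the IDR list, 79.59. The strongest region of the stretches left out of the list, near ey on 4, had 79.38, and the first signal below the list was 79.58. Overlapping neighbours were few: the 23 peaks formed 20 separate intervals, with 6 peaks in overlapping pairs.

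Chromosome 4 held 13 IDR peaks, between 60.5 kb and 1113 kb of its sequence. The strongest, with a signal of 495.3 and rank 537 among the pooled regions, lay at chr4:1113154-1113475 in the 3′ UTR of Cals, which encodes a calsyntenin, a transmembrane protein of the cadherin superfamily. Its signal was 124.5, 239.3 and 122.7 in replicates 1, 2 and 3, at ranks 738, 442 and 666 of each list. The peak was among the strongest regions in every replicate, and the nearest TSS lay 9642 bp away. Its region also overlaps the 3′ end of sv, a gene on the other strand that runs to 1113317.

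The next peak, at chr4:660065-660196 and 119 bp upstream of a TSS of gw, had a signal of 265.3. The gene gw encodes the GW182 protein of microRNA silencing. The replicates gave 77.44, 122.5 and 73.81, at ranks 1666, 1382 and 1595. An intergenic peak at chr4:424742-424910, 1250 bp upstream of lncRNA:CR43437, followed with 226.2, and with 65.48, 71.55 and 80.05 in the replicates. These peaks are narrow, at 132 and 169 bp, and replicate regions that overlapped them did not reach the 50% reciprocal overlap used for support.

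The Sox102F gene, which encodes a SoxD transcription factor, carried 3 IDR peaks, the most of any gene on 4. The overlapping pair at its promoter, chr4:807341-807780 and chr4:807541-807980, had signals of 216.5 and 135.8, at 214 and 414 bp upstream of a TSS. The stronger of them had 76.99, 85.22 and 53.82 in replicates 1, 2 and 3, and all 3 replicates held it among their strongest regions. The third, in an intron, had 91.92. PlexA, which encodes a receptor for semaphorin guidance cues, had a peak 203 bp upstream of a TSS with a signal of 193.6. Here the replicates were uneven: ranks were 1844 and 1496 in replicates 1 and 3, and 5945 in replicate 2.

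The remaining 6 peaks on 4 had signals from 86.7 to 135.1. Those at promoters were at RpS3A (94.63), which encodes a protein of the small ribosomal subunit, at myo (90.6), which encodes the TGF-beta family ligand myoglianin, and at dati (89.68), which encodes a zinc finger transcription factor. Away from promoters were peaks 4481 bp upstream of fuss (135.1), which encodes a protein of the Ski and Sno family, 537 bp upstream of Asator (130.5), a kinase gene of the tau tubulin kinase family, and in an intron of the antisense RNA gene asRNA:CR43957 (86.72), 3506 bp upstream of ci. The ci gene encodes the transcription factor of the Hedgehog pathway. RpS3A ranked 7478, 4189 and 4262 in the replicates, so replicate 1 did not hold it among its strongest regions. Between the RpS3A and dati summits lay the largest gap, 328.8 kb, which held 9 pooled regions and 0 IDR peaks. Every TSS of 23 protein-coding genes lay in it, and dati, whose start has the IDR peak at the edge of the gap, is 1 of these.

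On X the 8 peaks lay at 4 loci. The strongest, at chrX:22833631-22833860, had a signal of 248.7 and lay within CG42346 and fog, 173 bp from mir-2491. The fog gene encodes the secreted ligand that drives cell shape change in gastrulation. The replicates gave 89.83, 92.41 and 62.55, at ranks 1316, 2156 and 2008. A further 2 peaks lay in introns there, with signals of 170.5 and 106.9, and the weaker of them was 1308 bp upstream of a fog TSS. All 3 peaks of the locus were among the strongest regions of every replicate when an overlap of 1 bp was counted.

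An intron of CG12576 held a peak of 177.3, with 45.02, 76.75 and 52.13 in the replicates. The overlapping pair at l(1)G0196, an inositol phosphate kinase gene, had 161.4 and 113.0, and the stronger of them ranked 2542, 5444 and 1775. The pair at CG17167, with 87.62 and 82.93, was weaker and was among the strongest regions only in replicate 2, at rank 5797, against 7143 and 8328 in replicates 1 and 3.

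The remaining peaks were at Clamp on 2L and at the pseudogene CR33294 on 3R. Clamp encodes a zinc finger protein that binds GA repeats and brings the dosage compensation complex to the X chromosome. Its peak, at chr2L:22168439-22168878 and 484 bp downstream of a TSS, had a signal of 96.37. The replicates differed widely, with 14.21, 18.08 and 31.06 at ranks 12504, 15156 and 4992, so only replicate 3 held it among its strongest regions. The peak at CR33294 had 82.57, lay 12.9 kb inside the 3R boundary and ranked 7345, 6603 and 13614. It was the weakest of the 23.

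**Figure D3:**
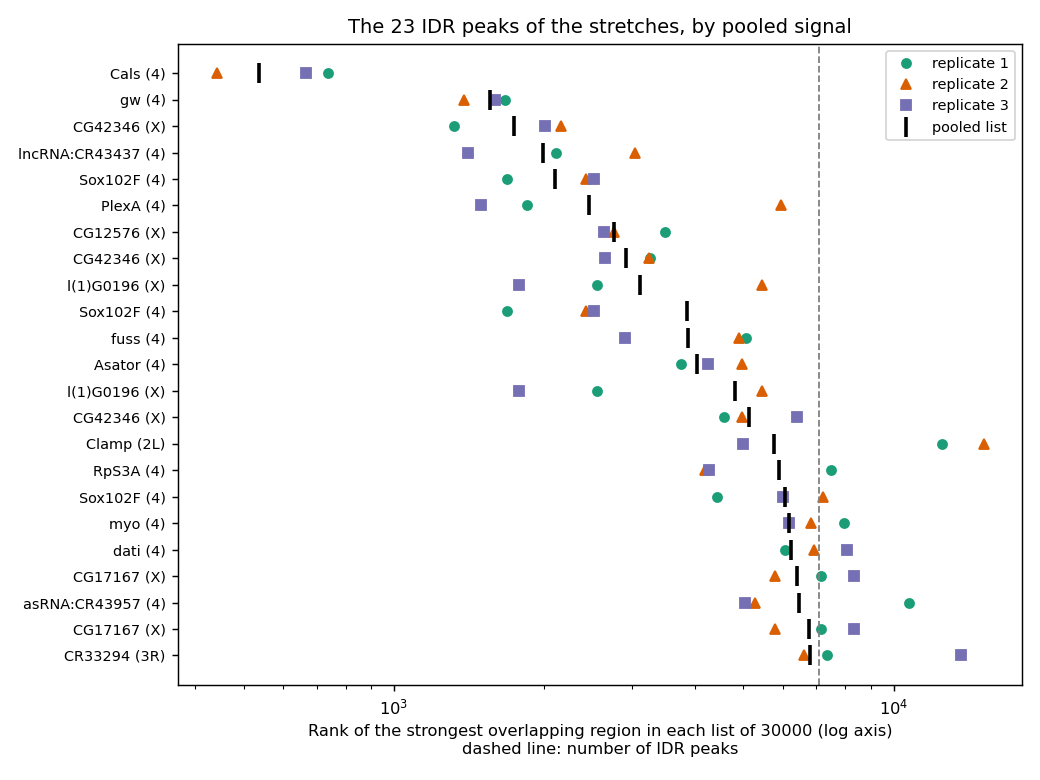
Rank of the strongest overlapping region in each list of 30000 (log axis, lower rank is stronger) for the 23 IDR peaks, ordered from the highest pooled signal at the top; coloured points are the replicates, black ticks the pooled list, and the dashed line the number of IDR peaks, 7096. Points to the right of the line, such as Clamp at 12504 and 15156 in replicates 1 and 2, are not among a replicate's strongest regions.

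Some of the strongest regions just outside the IDR list are given next. On 4 they lay 796 bp from a TSS of ey (79.38), which encodes a Pax6 transcription factor of eye development, at a promoter within unc-13 (71.46), which encodes a protein that primes synaptic vesicles for release, and at zfh2 (71.35), which encodes a zinc finger homeodomain protein. On 3L, where the IDR list had 0 peaks, the highest signals were 75.35 at CG12768, 60.28 in an intron of l(3)80Fg and 57.63 at RpL15, a gene of the large ribosomal subunit. CG12768 ranked 5084, 13179 and 6962 in replicates 1, 2 and 3. Its region was thus among the strongest of replicates 1 and 3 and well below them in replicate 2. On 2L and 3R the highest were 64.08 at CG3651 and 43.6 at CG12581, both at promoters. On X they were 74.97 at stnA, a gene of synaptic vesicle recycling, and 59.82 and 54.5 within l(1)G0196. The summits of these last lay in exons outside annotated UTRs and coding sequence, and whether the exons belong to l(1)G0196 was not analysed.

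Fewer of the 23 peaks than of the rest were held by all 3 replicates, though the interval around their share includes that of the rest. With a reciprocal overlap of 50% among the strongest regions, 9 of 23 peaks were held by all 3 replicates (39.1%, Wilson interval 22.2 to 59.2), against 53.1% in the rest. By replicate, 47.8%, 78.3% and 69.6% of the 23 were held in replicates 1, 2 and 3 (65.2 ± 15.7%, SD, n = 3). In the rest the shares were 73.6%, 77.9% and 72.3% (74.6 ± 2.97%, SD, n = 3). Within a replicate, the share was well below the rest in replicate 1 only and close to it in replicates 2 and 3. The share held by all 3 replicates is a single value without a spread over replicates. With an overlap of 1 bp the counts were 14 of 23 (60.9%) and 72.0% in the rest, and with every listed region searched in this way, 23 of 23 and 98.3%. The 4 peaks held by a single replicate at 1 bp were those of Clamp, CR33294 and the CG17167 pair. The pooled list derives from these replicates, so the lists are not independent.

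In the reverse comparison the stretches were well below the rest in replicates 1 and 3, and not in replicate 2. Of the strongest regions in the stretches, 66.7% (16 of 24) in replicate 1, 90.9% (20 of 22) in replicate 2 and 57.6% (19 of 33) in replicate 3 overlapped an IDR peak. In the rest of the arms the shares were 87.7%, 89.5% and 87.7%. Among the strong regions with no IDR peak were those at the promoter of lgs, which encodes a cofactor of Wingless signalling, at rank 5910 in replicate 1 and 7012 in replicate 3, with no overlapping region in replicate 2. Others were in the 5′ UTR of myo (ranks 5342 and 6155 in replicates 1 and 3, 29917 in replicate 2) and in l(1)G0196 (5389 and 5974, against 27505). These 3 examples were chosen after their values were seen. Over the 190 pooled regions of the stretches not in the IDR list, 35 (18.4%) overlapped a region in replicates 1 and 3 and none in replicate 2, against 7.66% of such regions in the rest. All 3 replicates held 33.2% of the 190 and 45.8% of such regions in the rest.

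The IDR peaks of the stretches lay at promoters more often than those of the rest. A summit within 500 bp of a TSS of any type of gene was called a promoter. This held for 14 of 23 peaks (60.9%, Wilson interval 40.8 to 77.8), against 36.0% in the rest. Of these 14, 11 were upstream of the nearest TSS, a count that was not made for the rest. The 14 include all 6 peaks in overlapping pairs, which the interval treats as separate. They also include the peak at the pseudogene CR33294 and that at mir-2491, with no protein-coding TSS within 500 bp. Introns held 5, intergenic sequence 3 and a 3′ UTR 1. In the replicates' strongest regions the promoter share was 54.2%, 59.1% and 54.5% in the stretches and 36.4%, 37.0% and 37.9% in the rest. The difference was 18.8 ± 2.86 percentage points (SD, n = 3; p = 0.25, exact sign-flip permutation test), and the ranges did not overlap. Weak regions had the same order: of the pooled regions outside the IDR list, 47.4% of 190 in the stretches and 24.3% in the rest were at promoters.

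Counted from the genes, the stretches were low. An IDR summit lay within 500 bp of a TSS for 9 of 232 protein-coding genes (3.88%, Wilson interval 2.05 to 7.21), against 20.5% of 10861 genes in the rest. The 9 genes were RpS3A, myo, PlexA, dati, gw and Sox102F on 4, l(1)G0196 and CG17167 on X, and Clamp on 2L. The share was 7.50% of the 80 genes on chromosome 4 and 1.97% of the 152 pericentromeric genes. Any pooled region at a TSS was found for 29.3% of genes in the stretches and 43.8% in the rest. Among genes with such a region, 13.2% in the stretches and 46.9% in the rest had an IDR peak.

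Gene groups that mark these stretches were then counted. Of 18 classical genes of pericentromeric heterochromatin, IDR peaks marked the start of 0, and a weaker pooled region lay at the start of 4 (22.2%). A count of 0 of 18 allows a share of up to 16.7%, and over all 152 pericentromeric genes the shares were 1.97% with an IDR peak and 26.3% with any pooled region. The 0 of 18 is near that background. Those 4 were stnA and stnB, which share a start and a signal of 74.97, RpL15 with 57.63, and su(f), which encodes a subunit of the machinery that cleaves pre-mRNA 3′ ends, with 43.47. The other 14, among them lt, cta, AGO3 and Set1, had 0 pooled regions at a TSS.

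The 3 groups of genes on 4 were close to each other. Over all 80 genes on 4, 6 (7.50%) had an IDR peak at a start, and the groups, drawn up with earlier results known, hold all 6, so nothing is read from a group's share against that of the chromosome. Among 15 transcription regulators, IDR peaks marked the starts of 2, Sox102F (216.5) and dati (89.68), and weaker regions those of 3, zfh2 (71.35), ci (51.94) and pan (45.21). Of 14 signalling and neuronal genes, 2 had an IDR peak, PlexA (193.6) and myo (90.6), and 4 had a weaker region, with Cadps (48.0) and unc-13 (43.16) the highest. Of 18 genes of general cell function, 2 had an IDR peak, gw (265.3) and RpS3A (94.63), and 5 had a weaker region, with Asator (69.29) and Slip1 (65.17) the highest. Any pooled region lay at the start of 33.3%, 42.9% and 38.9% of the genes of these groups in turn. Over all 80 genes on 4 it was 28 (35.0%), so the groups are near that background. Of the 15 regulators, 10 had 0 pooled regions within 500 bp of a TSS, among them ey, toy, pho and NfI. The lists of single replicates differ here. Replicate 1 had a region at a promoter of ey at rank 6362, among its strongest, and replicate 2 an overlapping one at rank 13745. Outside the stretches, IDR peaks marked the starts of 3 of 9 genes for heterochromatin proteins: the gene of heterochromatin protein 1a (121.1), HP1b (116.0) and Su(var)3-7 (92.32). Some of the 9 lie on arms outside the comparison, and 20.5% of genes in the rest of the arms had such a peak.

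The base composition at the summits resembled that of the rest, while the flanks did not. Summit windows of 101 bp had a mean GC content of 33.2% ± 9.79 (SD over 23 peaks) in the stretches and 33.1% ± 8.90 (SD over 5849 peaks) in the rest. The flanks, windows as wide and 300 bp to each side, had 39.2% in the stretches and 45.1% in the rest. The fall from flank to summit was therefore 5.98 percentage points in the stretches and 11.98 in the rest. The summit was below its flanks in 15 of 23 peaks, and in 4859 of 5849 in the rest. It was above them in 6 peaks: Asator (52.5% at the summit and 36.6% in the flanks), CR33294 and lncRNA:CR43437 (40.6% and 26.7% each), RpS3A, Clamp and the weaker CG17167 peak. It equalled them in 2, dati and the weakest CG42346 peak.

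In the strongest regions of the replicates the fall was 5.26, 3.76 and 1.88 percentage points in the stretches and 12.1, 10.75 and 11.3 in the rest. The difference was -7.72 ± 1.44 (SD, n = 3; p = 0.25, exact sign-flip permutation test), negative in 3 of 3 replicates. This comparison was added after the GC values were seen. Summit GC itself differed by 0.713 ± 0.264 percentage points (SD, n = 3), with values of 33.7%, 35.1% and 34.2% in the stretches and 33.1%, 34.05% and 33.7% in the rest. With windows of 100 bp on each side of the summit, the sign of that difference turned, to -0.520. The whole sequence of the stretches had a GC content of 39.4% and that of the rest 42.4%. In the weaker pooled regions of the stretches the summits were not below their flanks, at 38.6% and 37.3%, against 39.8% at summits and 42.8% in flanks in the rest.

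**Figure D4:**
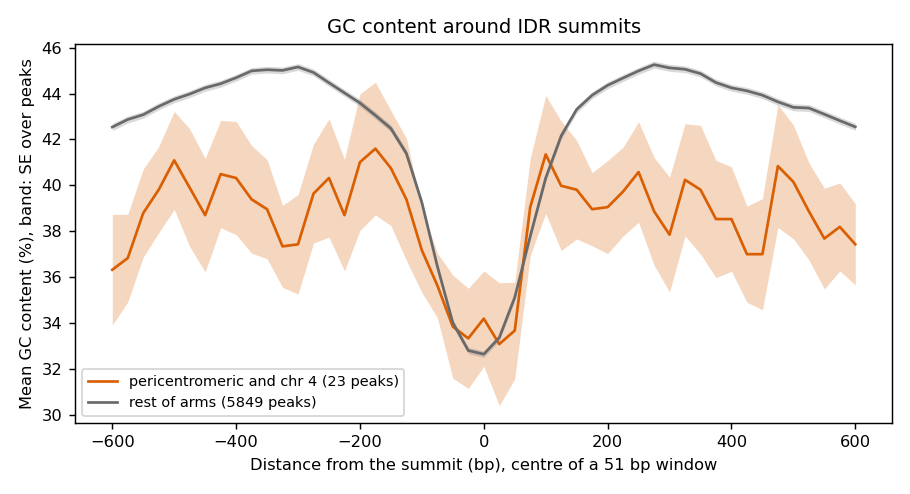
Mean GC content (%) in windows of 51 bp by distance from the summit in bp, for the 23 IDR peaks of the stretches and the 5849 of the rest; bands are the SE over peaks. At the summit the curves stand at 34.2% in the stretches and 32.6% in the rest, and at 300 bp to the left at 37.4% and 45.2%; between 75 and 100 bp to the right the stretches lie above the rest.

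Annotated transposable elements were not found under the IDR peaks of the stretches. They covered 12.5% of the stretches and 3.99% of the rest. The pericentromeric stretch of 3R stood apart, with 3.68% in annotated elements and 44.2% in masked bases, against 14.0% and 39.2% on 3L. How complete the annotation of elements is was not tested, so 12.5% can be too low. Of the 23 IDR peaks, 0 overlapped an annotated element anywhere in the region, which allows a share of up to 13.04%, above the share of bases that elements cover, and 0.205% of the IDR summits in the rest lay in one. Of all pooled regions, 13 of 213 summits in the stretches (6.10%) and 0.247% in the rest lay in an element. Of the 13, 9 lay in INE-1, a short and very numerous element of these sequences, 2 in 1360 and 1 each in Tc1 and mariner2. The strongest of them was the region at stnA, 74.97, and the others had signals from 16.8 to 54.8. Soft-masked bases made up 23.9% of the IDR summit windows in the stretches and 23.6% in the rest, although the stretches as a whole are masked more. In the replicates the difference was -1.21 ± 4.74 percentage points (SD, n = 3; p = 0.75, exact sign-flip permutation test).

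To check that the 23 windows are single sites, each was searched against the whole assembly. None of the 23 had a second copy at 90% identity over 80% of the window, against 8 of 5849 windows in the rest (0.137%). The region lists were measured after the authors' alignment, and the part of repeated sequence in them was not tested.

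Short motifs were searched on either strand of the 23 windows and of the windows in the rest. Among proteins of insulators and chromatin, the motif of BEAF-32 was searched as CGATA, and that of Trithorax-like as the repeat GAGAG. The core promoter was represented by the letters TATAAA, called the TATA box, and the homeodomain proteins by their shared core, which reads TAATTA. Sites of the zinc finger family named for its core were those 4 letters, GATA, with A or T before them and a purine after them. A pair of 7-mers was taken over from earlier results of these data, the first of which reads TAATATA and the second of which reads TCTTAAA. In the stretches and in the rest, the TATA box was in 26.1% and 22.0% of windows, the zinc finger sites in 17.4% and 22.4%, the repeat in 8.70% and 10.2%, and the second 7-mer in 8.70% and 5.54%. The BEAF-32 motif was in 1 of 23 windows (4.35%), that of the strongest X peak, and in 12.4% in the rest. The homeodomain core and the first 7-mer were also in 1 of 23 each (4.35%), against 10.04% and 7.95%. With 23 windows, 1 window is 4.35%, so these shares are coarse. A match is a description of the letters and not a binding site. In the printed windows, PlexA holds 2 of the zinc finger sites, 1 of them joined to the repeat, and CG12576 holds such a site on each strand.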

How the data were processed

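Per the file headers, the authors deposited narrowPeak lists of each replicate and of the pool, with up to 30000 regions as input to IDR, and a list of IDR-thresholded peaks, on dm3 and dm6. A control entered the calling, per the file headers. The signal is the peak height from the authors' caller, scaled separately in every list, and served to rank and describe regions within a list. Not given in the sources used here were the aligner, the caller and the threshold of the IDR step. Read depth is unknown. The IDR list was identical to the top 7096 regions of the pooled list by signal.

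Summits (start plus offset) were placed on Ensembl release 115 genes, transposable elements on the RefSeq annotation, and sequence on the RefSeq genome of the same assembly. Coordinates are dm6, counted from 1. Windows were searched with BLAST+ 2.17.0+, and values computed with Python 3.11.15, pandas 2.3.3 and NumPy 2.4.6. Each replicate gave a value for the stretches and for the rest, and their differences entered an exact two-sided sign-flip permutation test. The density count was tested on simulated, evenly spread summits, at density ratios less extreme than that of the stretches. That test covers the counting only. Intervals are 95% Wilson. Nothing in the labels says more of the replicates than that they are biological.

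The members and gene lists were chosen with earlier results of these data known. Named peaks are every IDR peak on 4 and the 5 strongest of each pericentromeric stretch, plus the 3 others of X for completeness. They are named by a protein-coding gene with a TSS within 500 bp, else the gene that holds the summit, else the nearest TSS. Listed genes are given by count with up to 4 of highest signal, and the 3 strongest regions on 4 outside the IDR list are added. Other named regions outside that rule, such as those of 2L, 3L, 3R and X below the IDR list, were chosen after their values were seen. Symbols of 3 listed genes did not match the annotation and were not used. Alternatives were the number of strongest regions, the boundaries, chromosome 4 alone or left out, windows, overlap rules and leaving out each replicate.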

Additional observations from a re-analysis of the deposited data

Results flagged for a closer look

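In the dm3 lists, regions were counted on 4 separate sequences for heterochromatin, 2LHet, 3LHet, 3RHet and XHet, and some were found there. The dm3 lists took no part in the comparisons. Whether these regions are sites already described on dm6 was not tested, so they are not counted as additional ones. The pooled dm3 list had 13 regions on the 4 sequences. Replicate 1 had 34 regions on these sequences, replicate 2 had 5 and replicate 3 had 41. The highest signal in the pooled list was 85.7, on XHet, at rank 6416 of 30000, and the dm3 IDR list held 2 peaks there, of 85.7 and 80.4. Their ranks, 6416 and 6851, are close to those of the CG17167 pair on X in dm6, 6395 and 6778, with signals of 87.62 and 82.93. As on dm6, replicate 2 listed the fewest. With 3 samples in the group, no sample was tested for standing apart.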

How the results depend on the processing

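No paired analysis was possible because there is no second group to pair with. The stretches and the rest were compared within each replicate. The log2 density ratio stayed negative in 11 of 11 alternatives (-6.46 to -2.27), the difference in the share among the strongest in 7 of 7 (-17.7 to -8.78 percentage points) and the difference in promoter share stayed positive in 9 of 9 (10.4 to 24.9 percentage points). The p of these could not fall below 0.25, or 0.5 with a replicate left out. The small GC difference of 0.713 percentage points turned to -0.508 with 3548 strongest regions, to -0.936 without chromosome 4 and to -0.520 with windows of 100 bp on each side, and ranged over 0.563 to 0.813 with each replicate left out. The difference in masked bases turned to 0.529 with 14192 strongest regions and to 1.89 without chromosome 4, and ranged from -3.76 to 0.923 with each replicate left out, the highest without replicate 2. The cause of these turns was not tested. Of the 23 peaks, 60.9% were held by all 3 replicates with an overlap of 1 bp and 69.6% when all regions were searched, against 39.1% as reported, since both rules accept more regions. Genes with an IDR peak of above-median signal at a TSS came to 1.72%, against 3.88%, since fewer peaks were counted. Counting overlapping peaks once gave a median signal of 132.8, an alternative added after the data were seen. Read depth is unknown, and 23 peaks set the precision of every share.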
